A study of Lentinus tigrinus with 27 samples.

Results

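Genes whose mean RNA level, on a log2 scale, was highest in the lamellae of the mature fruiting body were examined in Lentinus tigrinus, a wood-decay mushroom. Levels are TPM, read counts scaled by gene length and by the total of the library. For each gene the mean of log2(TPM + 1) over the 3 libraries of a group was taken. Members are the genes whose lamellae mean was at least 3 and at least 1 above the mean of each of the other 8 groups, that is, roughly 2-fold higher. The rule chose 162 of 15581 gene models, or 1.04%. Because it used the lamellae values, the lamellae levels and every contrast with lamellae are given here as a description.

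Lamellae, or gills, are the plates under a mushroom cap. They carry the spore-bearing layer, the hymenium, in which basidia complete meiosis and form spores. In the species studied, the gills run on the lower face of the cap, so a cap piece and a gill piece are neighbouring tissues.

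All 27 polyA RNA libraries came from strain RLP-9953-sp and form 9 groups of 3, which the series describes as biological replicates. Whether a library holds 1 body or several is not given in the sources used here, nor is how closely the gills were cut from the cap. Vegetative mycelium (VM) is the filamentous growth phase. The strain was kept on malt extract agar, and the labels do not say from which medium the VM libraries were harvested. Fruiting cultures stood on sawdust with wheat bran for 21 days at 30 °C in darkness, then at 25 °C with 12 h of light a day. P1 are stage 1 primordia, undifferentiated and white, 5 to 20 mm tall. Stage 2 primordia of 15 to 25 mm, with a brown tip, gave a cap (P2_C) and a stipe group (P2_S). Young fruiting bodies on a stipe of 30 to 40 mm, with a cap of up to 5 mm whose gills were only just visible, gave YFB_C and YFB_S. Mature bodies, 50 to 70 mm tall and with the cap flat, were split into cap (FB_C), stipe (FB_S) and lamellae (FB_L). No gill group of the young body is analysed here. The FB_S libraries have the replicate numbers 2, 3 and 4.

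Depth ran from 10.84 to 31.82 M reads assigned to genes, with 17.29, 10.84 and 11.24 M in FB_L replicates 1, 2 and 3. On the first principal component of the 11339 genes kept by a minimum mean count, FB_L replicates 1, 2 and 3 lay at -43.2, -19.6 and 33.4. This component held 30.6% of the variance. FB_C replicates lay at 4.3, -57.5 and -17.7 and the VM libraries between -99.5 and -74.5. FB_L replicate 1 and FB_C replicate 2 thus lay nearest to VM in their groups, and both were sequenced on the flowcell that also held VM replicates 1 and 2. The files pair the gene identifiers with no names or functions, so members are known by identifier alone. No list of meiosis, spore, hydrophobin or cell wall genes, and no tissue marker, could be set beside them.

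The 162 members together held 3.555%, 4.676% and 4.498% of all TPM in FB_L replicates 1, 2 and 3, a mean of 4.24% ± 0.602 (SD, n = 3). In FB_C they held 0.495%, 2.015% and 1.939%, a mean of 1.48% ± 0.857 (SD, n = 3). The remaining 21 libraries lay between 0.21% (FB_S replicate 4) and 1.07% (P1 replicate 1). FB_L libraries were therefore highest, FB_C replicates 2 and 3 came next, and FB_C replicate 1 lay within the range of the other groups. Fewer cells of a type and less RNA per cell cannot be told apart in such tissue samples.

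**Figure D1:**
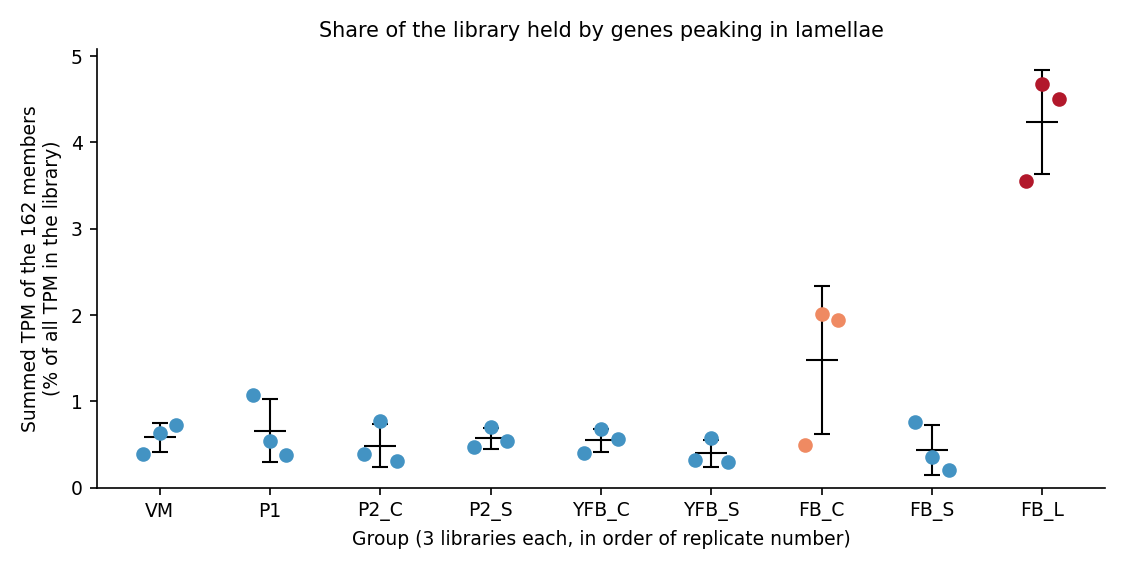
Summed TPM of the 162 members as a percentage of all TPM, for each of the 27 libraries (points) by group, with the group mean and SD (bars, n = 3). The FB_L libraries sit between 3.555% and 4.676%, FB_C replicates 2 and 3 at 2.015% and 1.939%, and FB_C replicate 1 at 0.495%.

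The median member stood at 43.2, 69.3 and 50.9 TPM in FB_L replicates 1 to 3. It stood at 7.04, 26.7 and 13.4 TPM in the FB_C replicates, between 6.6 and 7.46 TPM in YFB_C, and between 2.75 and 4.15 TPM in FB_S. The rule fixed lamellae as the highest group, and the mature stipe libraries had the lowest medians. FB_S had the lowest mean of the 9 groups for 97 of the 162, whereas FB_S was lowest for 31.8% of the 9284 gene models whose FB_L mean reached 3. Among those models FB_L itself can be lowest, which the rule bars for members, so the shares are not fully alike. Lamellae means ran from 3.04 to 12.69 on the log2(TPM + 1) scale, with a median of 5.81. A single gene held 22.3% of the members' summed mean TPM in FB_L, and the 10 highest genes held 48.6%.

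The margin over the next highest group was small for most members, from 1.02 to 2.69 with a median of 1.30. The next group was FB_C for 96 members, VM for 26, YFB_C for 23 and P1 for 11. It was FB_S for 3, P2_C for 2 and P2_S for 1. Mature cap was therefore the nearest tissue for most members, and mycelium for the next largest share. The same rule applied to other groups chose 688 genes for VM, 52 for P2_C, 34 for FB_S, 22 for FB_C, 9 each for P1 and YFB_C, 1 for YFB_S and 0 for P2_S. With FB_C replicate 1 left out, the rule chose 88 genes for FB_L, all of them among the 162.

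At the edges of the rule, Lenti6_1_656183 (margin 1.0226) and Lenti6_1_37096 (1.0252) lay just inside, and Lenti6_1_651884 (0.9982) and Lenti6_1_652614 (0.995) just outside. On the level threshold, Lenti6_1_655068 (lamellae mean 3.0368) and Lenti6_1_649176 (3.079) lay inside, and Lenti6_1_38366 (2.9464) and Lenti6_1_566556 (2.8877) outside. The edge is crowded on the margin, with 28 members between 1 and 1.1 and 23 genes between 0.9 and 1, while 8 genes missed on level alone.

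The median member length was 1198 bases, near the 1216 over all gene models. It was below the 1432 over models with an FB_L mean of at least 3. Members ranged from 228 to 5352 bases. All 162 passed the filter on low counts, and all 162 also passed it with the FB_L libraries left out. Under 90% of reads were unique in 5 members, and in 335 of the 14244 models with reads. The pair Lenti6_1_568624 and Lenti6_1_618229, both of 2922 bases, had 0% unique reads and differed by at most 0.17 (log2) in any library. The pair Lenti6_1_428315 and Lenti6_1_62829, both of 1049 bases, also had 0% unique reads and differed by at most 0.40. Values within each pair are uncertain and may be 1 measurement counted under 2 identifiers. Strand is not stated, so overlapping or antisense genes cannot be told apart.

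The members did not form a single pattern within lamellae. The SD of log2(TPM + 1) over the 3 FB_L libraries had a median of 1.28 among members, against 0.42 over the 9284 gene models with an FB_L mean of at least 3. The ratio of the highest to the lowest FB_L library had a median of 5.81, with quartiles of 3.41 and 10.1. It exceeded 10 in 45 members and stayed under 2 in 8. In only 27 members did all 3 FB_L libraries lie above all 24 others in TPM, and in 74 at least 1 FB_L library lay below the mean of the next group. Among the 27, the next group was FB_C for 15, YFB_C for 7, VM for 3 and P1 for 2, and FB_L replicate 3 was the highest lamellae library in 24.

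FB_L replicate 1 was the lowest lamellae library in 85 members. In those genes the median was 14.3, 53.8 and 49.9 TPM in FB_L replicates 1, 2 and 3, and 5.06, 24.3 and 12.3 TPM in FB_C replicates 1, 2 and 3. Here FB_C replicate 2 was the highest cap library in 63 of 85. FB_L replicate 2 was the lowest in 42 members, with medians of 168, 58.8 and 198 TPM in FB_L and of 20.0, 11.8 and 97.7 TPM in FB_C. Here FB_C replicate 3 was the highest cap library in 37 of 42. FB_L replicate 3 was the lowest in 35 members, with medians of 239, 111 and 5.03 TPM in FB_L and of 9.63, 63.4 and 5.85 TPM in FB_C. Here FB_C replicate 2 was the highest cap library in 33 of 35. In each of the 3 sets the median was lowest in the lamellae library used to make the set, and in the cap library of the same number. FB_C replicate 1 was, however, the lowest cap library for 111 of all 162 members. Over 11339 genes, deviations from the group mean of same-numbered FB_L and FB_C libraries correlated at -0.409, 0.444 and 0.393 in replicates 1 to 3. In all, FB_C replicate 2 was the highest cap library for 101 of the 162, against 41.9% of the 9284 gene models. These sets were made from the values themselves and are not tested.

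**Figure D2:**
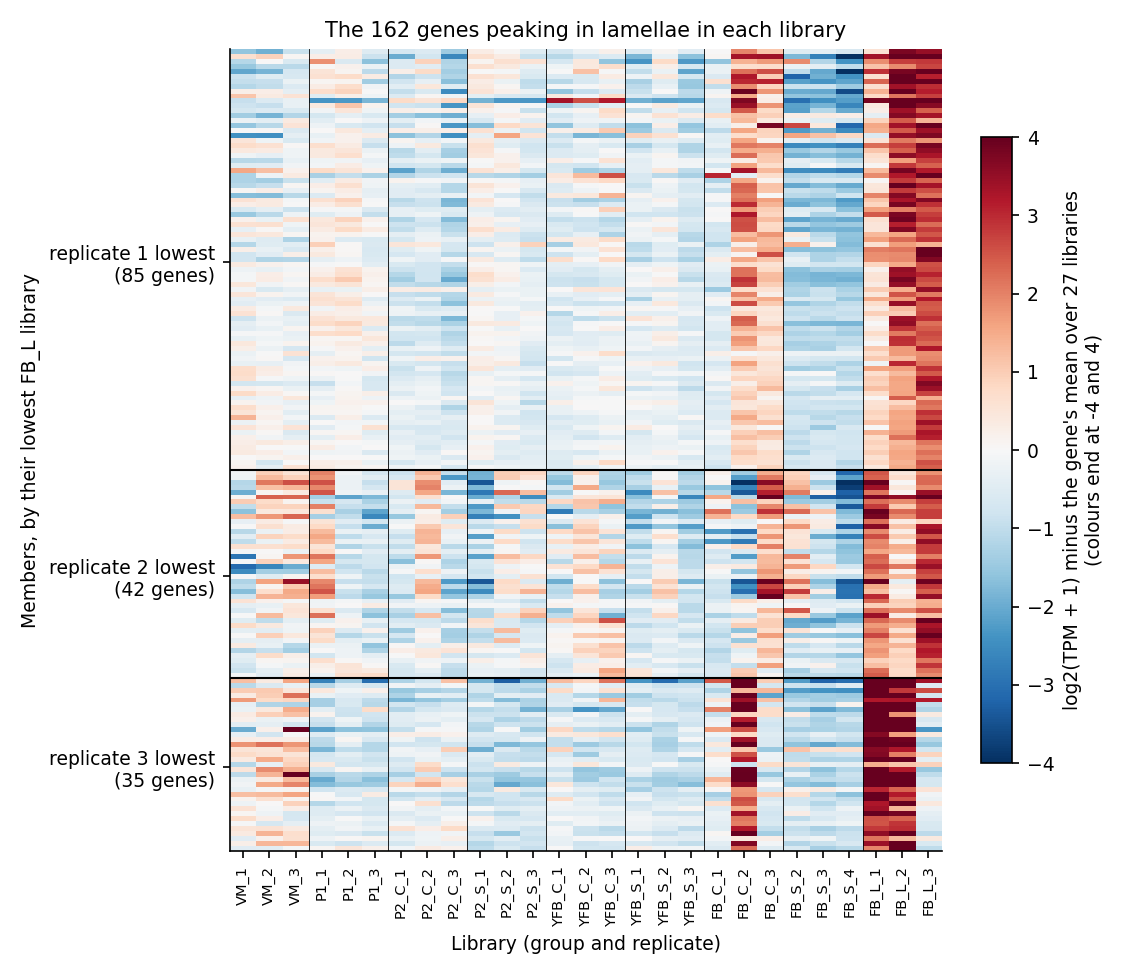
Level of each of the 162 members (rows) in each of the 27 libraries (columns), as log2(TPM + 1) minus the gene's mean, with colours ending at -4 and 4. Rows are grouped by the FB_L library in which the gene was lowest (85, 42 and 35 genes); in the third block FB_L replicate 3 is pale while FB_C replicate 2 is dark.

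Each lamellae library was also read for genes chosen without it. The other group means still enter both the choice and the reading, so the share over all gene models is not a no-change value. With FB_L replicate 1 left out, the rule chose 184 genes, 125 of them members. In replicate 1 itself 41 of these 184 (22.3%) were at least 1 above every other group mean, against 1.92% of all 15581 gene models in that library. With replicate 2 left out, 61 of 180 (33.9%) were that high in replicate 2, against a background of 2.17%. With replicate 3 left out, 53 of 217 (24.4%) were that high in replicate 3, against 2.53%. In each library most of the genes chosen from the other lamellae were not that high. The left-out library lay above the next group's mean for 110 of 184, 118 of 180 and 73 of 217 genes, with median differences of 0.28, 0.48 and -0.84 (log2). Replicate 3 therefore lay below the next group's mean for most genes chosen from replicates 1 and 2, 144 of 217.

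**Figure D3:**
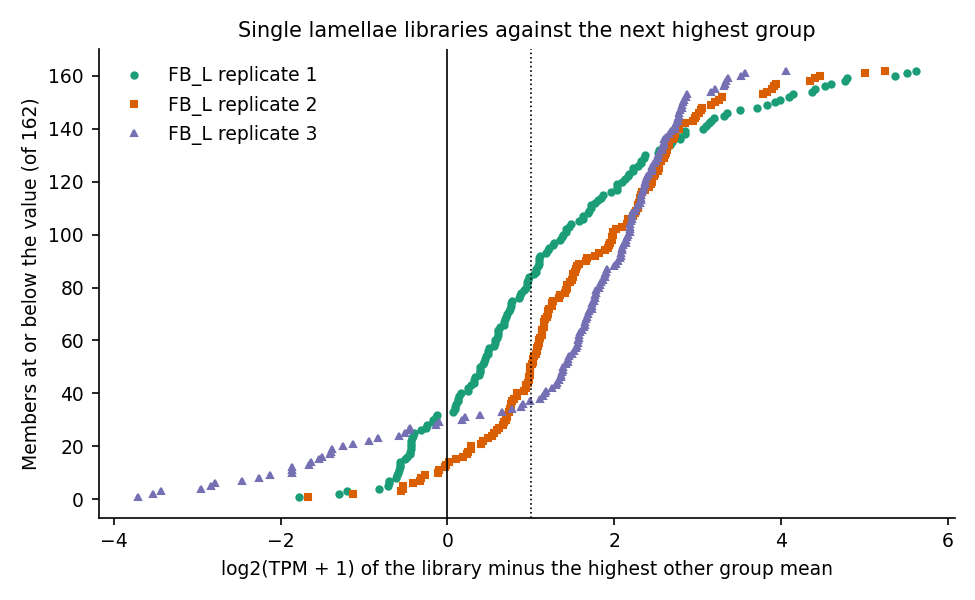
Cumulative number of the 162 members (vertical axis) against the difference, in log2(TPM + 1), of each single FB_L library from the highest other group mean (horizontal axis). The solid line marks no difference and the dotted line a difference of 1; 32 members fall left of 0 for replicate 1, 13 for replicate 2 and 29 for replicate 3.

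Among single genes, Lenti6_1_562177 (894 bases) was the most abundant member. Its level was 1630, 14700 and 12100 TPM in FB_L replicates 1, 2 and 3. In FB_C it was 1090, 4260 and 2350 TPM, and the group means elsewhere ran from 413 TPM in VM to 1080 TPM in P2_S. FB_L replicates 2 and 3 lay far above every other library, whereas replicate 1 fell within the FB_C range. Lenti6_1_653169 (387 bases), the second most abundant by lamellae mean, stood at 1170, 2330 and 2460 TPM in FB_L and at 119, 1140 and 1200 TPM in FB_C. FB_L replicate 1 overlapped FB_C replicate 3. Its FB_S libraries were at 32.2, 16.4 and 4.71 TPM, the lowest of all groups on average.

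The largest margins came from genes that were uneven across lamellae. Lenti6_1_599908 (951 bases) was at 446, 315 and 0.775 TPM in FB_L, at 1.59, 73.8 and 0.262 TPM in FB_C and at 0.748, 8.36 and 56.5 TPM in VM. In the other 6 groups it never exceeded 1.92 TPM. Replicate 3 of FB_L and of FB_C were both at the level of those groups. Lenti6_1_587295 (444 bases, with 77.5% unique reads) shared this shape, at 878, 679 and 0.553 TPM in FB_L and 137 TPM in VM replicate 3. Lenti6_1_511493 (291 bases) was at 2270, 115 and 162 TPM in FB_L, against 107, 7.63 and 178 TPM in FB_C and 114 TPM in FB_S replicate 2. Replicate 1 stood far above the other 2 lamellae libraries, which lay within the FB_C range.

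Few members were level across lamellae. Lenti6_1_559147 (1542 bases) had the narrowest spread, at 157, 160 and 153 TPM in FB_L. It reached 181 TPM in FB_C replicate 2 but 24.7 and 37.8 TPM in FB_C replicates 1 and 3, and at most 54.6 TPM elsewhere. Lenti6_1_510599 (1167 bases) was at 82.5, 64.7 and 56.5 TPM in FB_L, above the group means of 22.3 to 32.3 TPM in the 8 other groups, although VM replicate 3 reached 57.3 TPM.

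Where a group other than mature cap came next, the pattern was different again. With YFB_C next, Lenti6_1_491706 (1800 bases) stood at 387, 310 and 569 TPM in FB_L, at 149, 184 and 232 TPM in YFB_C and at 92.9, 193 and 157 TPM in FB_C. All 3 lamellae libraries lay above the 24 others. With VM next, Lenti6_1_511944 (1110 bases) stood at 1710, 411 and 1060 TPM in FB_L and at 274, 583 and 455 TPM in VM, but also at 1210 TPM in P1 replicate 1. With P1 next, Lenti6_1_541431 (1160 bases) stood at 584, 146 and 1470 TPM in FB_L and at 760, 118 and 106 TPM in P1, and reached 1160 TPM in FB_C replicate 3. In both of the latter genes the lamellae libraries overlapped several other groups.

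**Figure D4:**
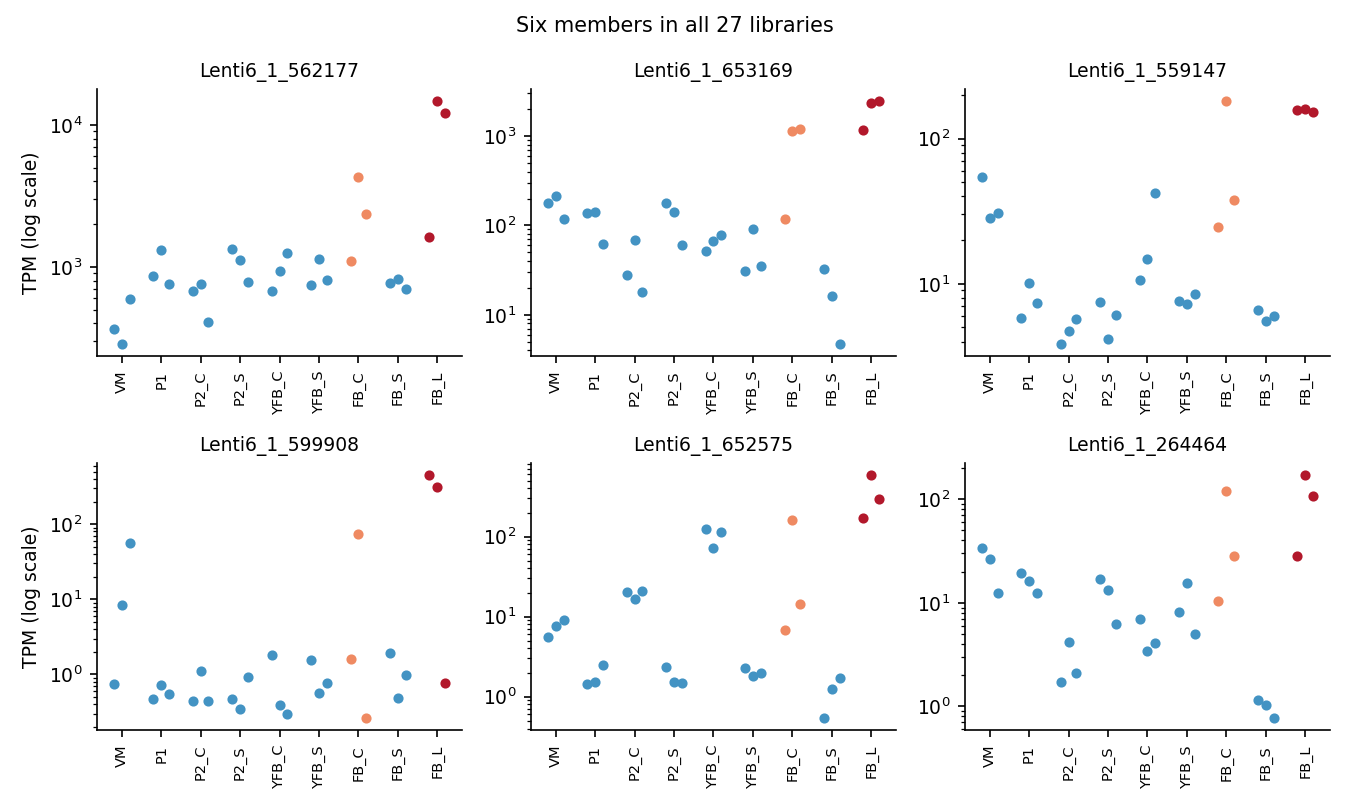
TPM (log scale) of 6 members in each of the 27 libraries, by group, with FB_L in red, FB_C in orange and the other groups in blue. Lenti6_1_559147 is level across FB_L (157, 160 and 153 TPM), whereas Lenti6_1_599908 falls to 0.775 TPM in FB_L replicate 3.

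Comparisons between groups other than lamellae did not enter the choice of members, except that the rule keeps each of those groups below FB_L. They ask where else in development these genes move. Counts were tested with edgeR's quasi-likelihood method over 13569 genes, with calls made where the Benjamini-Hochberg adjusted p was under 0.05 and the change at least 2-fold. In the main fit, each count of calls in a direction is set beside the share of all tested genes called in the same direction. For the other fits, the shares of members and of all genes take both directions together. The labels do not say whether libraries of the same number share a body, so the main tests are unpaired.

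From young to mature cap, 73 of the 162 members rose, or 45.1%, against 10.6% of all genes. By edgeR 0 fell, against 5.70% of all genes, and 1 was lower at an unadjusted p under 0.05. DESeq2 and limma-voom also called 0 lower. However, edgeR called 2 lower without FB_C replicate 3. It called 1 lower without FB_C replicate 2, and 1 without the 4 libraries on the flowcell of FB_L replicate 1. The members' median log2 fold change was 1.44, against 0.11 over all genes, and it was positive for 149 of 162. The called rises ran from 1.02 to 6.37 (log2). In CPM, reads scaled to library size, all 3 FB_C libraries lay above all 3 YFB_C libraries for 46 members (28.4%), against 17.3% of all genes. The size of the count rested on few libraries. It was 22 without FB_C replicate 2 (21 higher and 1 lower), 33, 39 and 47 without YFB_C replicates 2, 3 and 1, and 1 with flowcell as a covariate. Called in either direction were 45.1% of members and 16.3% of all genes in the fit of all libraries. Without FB_C replicate 2 these shares were 13.6% and 8.39%. With the flowcell covariate they were 0.617% and 2.56%, so the members then lay below all genes. In a fit of the 6 libraries alone the count was 7, and the share of members called (4.32%) was then near that of all genes (4.07%). No flowcell held both FB_C and YFB_C, so flowcell and maturation cannot be told apart within one. The median fold change of the members was 0.92 without FB_C replicate 2 and 1.11 with the flowcell covariate.

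Lenti6_1_653074 (811 bases) had the largest of these rises by the rule. It was at 1.47, 0.644 and 1.61 TPM in YFB_C and at 10.5, 253 and 1.77 TPM in FB_C, and FB_L was at 285, 191 and 1.82 TPM. FB_C replicate 2 was high, replicate 1 moderate, and replicate 3 close to the young cap in both tissues. The log2 fold change was 6.37 ± 1.46 (SE, edgeR adjusted p = 0.00564), and it was 2.58 without FB_C replicate 2, with an adjusted p of 0.132. Lenti6_1_609041 (1758 bases) was at 8.50, 6.92 and 7.42 TPM in YFB_C and at 10.2, 1490 and 6.77 TPM in FB_C, with 350, 1070 and 5.52 TPM in FB_L. In CPM these were 10.2, 8.80 and 9.41 in YFB_C and 16.3, 2180 and 10.3 in FB_C. One cap library was high, and the others lay near the young cap. The change of 6.28 ± 1.53 (log2, SE, edgeR adjusted p = 0.00785) became 0.48 without FB_C replicate 2, with an adjusted p of 0.764. The abundant Lenti6_1_653169 rose from 51.7, 66.9 and 77.4 TPM in YFB_C to 119, 1140 and 1200 TPM in FB_C, by 3.91 ± 0.74 (log2, SE, edgeR adjusted p = 0.00211). All 3 mature cap libraries lay above the young ones.

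In the mature body, 87 of the 162 members were higher in FB_C than in FB_S, or 53.7%, against 8.88% of all genes. By edgeR 0 were lower, against 3.63% of all genes, and 0 were lower at an unadjusted p under 0.05, or by DESeq2 or limma-voom. Without FB_C replicate 3, however, edgeR called 2 lower. The median log2 fold change was 2.07, against 0.04 over all genes, and positive for 147 of 162. All 3 FB_C libraries lay above all 3 FB_S libraries in CPM for 86 members (53.1%), against 14.9% of all genes. Without FB_C replicate 2 the count was 49 (30.2% of members, against 6.0% of all genes in either direction) and the members' median 1.20. The count was 53 with replicate number as a block (32.7%, against 5.82%) and 24 in the 6 libraries alone (14.8%, against 3.06%). With flowcell as a covariate it was 3 (1.85%, against 0.988%). No flowcell held both groups. FB_S replicate 4 is alone on its flowcell and in its block, so those 2 fits rest on FB_S replicates 2 and 3 wherever FB_S enters.

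Lenti6_1_583236 (981 bases) stood at 81.4, 12.4 and 1730 TPM in FB_C and at 7.28, 1.92 and 1.56 TPM in FB_S, with 381, 328 and 866 TPM in FB_L. All cap libraries lay above the stipe, and FB_C replicate 3 lay above every lamellae library. Its mean TPM was thus higher in FB_C (607) than in FB_L (525), although the mean of log2(TPM + 1) used by the rule was higher in FB_L. The log2 fold change was 7.19 ± 1.36 (SE, edgeR adjusted p = 0.00153), and 3.53 without FB_C replicate 3, with an adjusted p of 0.0108. Its adjusted p was 0.119 with the flowcell covariate and 0.0874 in the 6 libraries alone. Lenti6_1_1454 (1199 bases) stood at 128, 983 and 45.6 TPM in FB_C and at 4.01, 1.57 and 1.88 TPM in FB_S, with 1040, 1300 and 237 TPM in FB_L. This difference of 7.02 ± 1.12 (log2, SE, edgeR adjusted p = 0.000423) stayed past the threshold under every alternative run.

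In the stipe the share of members called on maturation was near that of all genes in the fit of all libraries (8.02%, against 8.93%). It lay above or below that of all genes in other fits. From YFB_S to FB_S, 2 members were called higher, against 3.04% of all genes, and 11 lower, against 5.90%, which are 8.02% of the members together. The median log2 fold change was -0.30, against -0.05 over all genes. In CPM, all 3 FB_S libraries lay below all 3 YFB_S libraries for 57 members (35.2%), against 22.0% of all genes. The count of 13 calls became 23 under DESeq2 (14.2% of members, against 10.2% of all genes). It became 34 (31 of them lower) in the 6 libraries alone (21.0%, against 11.7%). Without the 4 libraries on the flowcell of FB_L replicate 1 it became 27 (16.7%, against 11.3%). It became 3 under limma-voom (1.85%, against 8.31%) and 5 with the replicate block (3.09%, against 5.22%). With the flowcell covariate it became 1 (0.617%, against 5.21%). It was 5, 2, 5, 0 and 3 without YFB_S replicates 1 and 2 and FB_S replicates 2, 3 and 4 in turn. Lenti6_1_264464 (758 bases) fell from 8.24, 15.4 and 4.98 TPM in YFB_S to 1.15, 1.03 and 0.769 TPM in FB_S. This log2 change of -3.08 ± 0.76 (SE, edgeR adjusted p = 0.0123) had no overlap between the groups. In the cap the same gene rose, from 6.92, 3.45 and 4.12 TPM in YFB_C to 10.4, 120 and 28.5 TPM in FB_C. Lenti6_1_649447 (2357 bases) fell from 4.05, 5.70 and 1.58 TPM to 0.711, 0.565 and 0.464 TPM in the stipe, a log2 change of -2.49 ± 0.80 (SE, edgeR adjusted p = 0.0411). This call was lost in 8 of 13 alternatives, with adjusted p values of up to 0.294. The fall of Lenti6_1_264464 was lost in 3 of 13.

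The difference between the cap and the stipe change was tested as an interaction. For 63 members (38.9%) the change on maturation was higher in cap than in stipe, against 16.2% of all genes, and for 0 it was lower by edgeR, against 11.1%. At an unadjusted p under 0.05 it was lower for 1, and DESeq2 and limma-voom called 1 and 0 lower. EdgeR called 4 lower without FB_C replicate 3. It called 1 lower without FB_C replicate 2, without FB_S replicate 4 and with the replicate block. It also called 1 lower without the 4 libraries on the flowcell of FB_L replicate 1. The median difference was 1.70 (log2), against 0.19 over all genes. The FB_C libraries enter this test and both comparisons of FB_C above, so their counts of 73, 87 and 63 are not separate results. Of these calls, 65, 70 and 55 were among the 96 members with FB_C as the next highest group. Without FB_C replicate 2 the interaction called 38 members (37 higher and 1 lower), with a median difference of 1.11. Called in either direction, the share of all genes was 27.3% in the fit of all libraries. With the flowcell covariate the count was 7, or 4.32% of members, against 9.6% of all genes in either direction. Under limma-voom it was 35, or 21.6%, against 25.1%. In those 2 fits the share of members called in either direction thus lay below that of all genes. All 7 and all 35 member calls were higher in cap, and the share of all genes called in that direction is not given for these fits. Among the genes described above, the difference was 6.80 ± 1.04 (log2, SE) for Lenti6_1_264464 (edgeR adjusted p = 0.000355) and 5.28 ± 1.00 for Lenti6_1_653169 (edgeR adjusted p = 0.00109).

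**Figure D5:**
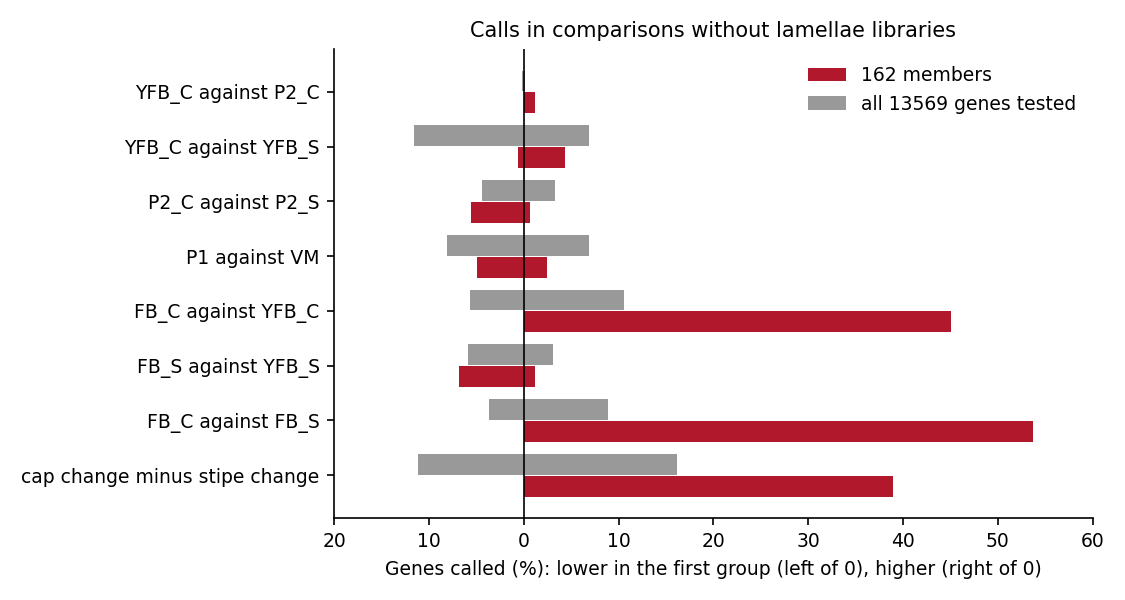
Percentage of the 162 members (red) and of all 13569 tested genes (grey) called lower (left of 0) or higher (right of 0) in the first group of each comparison without lamellae. Members exceed the grey bars most in FB_C against YFB_C (45.1%), FB_C against FB_S (53.7%) and the cap change minus the stipe change on maturation (38.9%). These comparisons share the FB_C libraries.

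Before the mature body the counts of members called were small in the fit of all libraries, and depended on the fit. From P2_C to YFB_C, the step at which gills were first noted, 2 members were called higher, against 0.170% of all genes, and 0 lower by edgeR, against 0.155%. At an unadjusted p under 0.05, 15 were higher and 0 lower, and DESeq2 and limma-voom called 0 lower. Their median log2 fold change was 0.22, against -0.03 over all genes. All 3 YFB_C libraries lay above all 3 P2_C libraries in CPM for 35 members (21.6%), against 14.8% of all genes, and below them for 6 (3.7%), against 13.9%. Both called genes had YFB_C as their next highest group. Lenti6_1_538975 (924 bases) rose from 3.46, 3.37 and 2.46 TPM in P2_C to 12.6, 16.1 and 41.5 TPM in YFB_C, and FB_L was at 33.6, 25.2 and 114 TPM. Its log2 fold change was 2.86 ± 0.56 (SE, edgeR adjusted p = 0.0228). Lenti6_1_491706 rose from 70.8, 60.7 and 77.6 TPM in P2_C to the YFB_C levels given above, by 1.38 ± 0.27 (log2, SE, edgeR adjusted p = 0.0192). In both genes the young cap libraries all lay above the stage 2 cap. Neither call held with the replicate block, where 0 members were called. The count was also 0 without any one of the P2_C replicates or YFB_C replicate 3, 1 without YFB_C replicate 2 and 4 without YFB_C replicate 1. It was 7 under DESeq2 (4.32% of members, against 1.07% of all genes) and 5 in the 6 libraries alone (3.09%, against 0.951%). Without the 4 libraries on the flowcell of FB_L replicate 1 it was 8 (4.94%, against 0.737%).

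Within the young body, 7 members were called higher in YFB_C than in YFB_S, against 6.85% of all genes, and 1 lower, against 11.6%. These 8 calls are 4.94% of the members, a smaller share than the 18.4% of all genes called in either direction. The count was 4 without YFB_C replicate 3 and 5 without YFB_S replicate 1. It was 26 (16.0%, against 21.2% of all genes) in the 6 libraries alone and 17 (10.5%, against 20.1%) without the 4 libraries on the flowcell of FB_L replicate 1. Lenti6_1_652575 (813 bases) had the largest difference, at 124, 72.3 and 114 TPM in YFB_C and 2.26, 1.82 and 1.95 TPM in YFB_S. Its log2 fold change was 5.37 ± 0.82 (SE, edgeR adjusted p = 0.00022). The same gene was at 20.1, 16.6 and 20.9 TPM in P2_C and 2.35, 1.51 and 1.47 TPM in P2_S, and at 172, 582 and 295 TPM in FB_L. It was thus higher in cap than in stipe without overlap at both early stages, and highest in lamellae. Lenti6_1_1454 was at 55.8, 41.4 and 104 TPM in YFB_C and 3.60, 1.82 and 4.27 TPM in YFB_S, and differed by 4.05 ± 0.98 (log2, SE, edgeR adjusted p = 0.00506). Lenti6_1_656183 (697 bases) was the member called lower, at 17.0, 8.78 and 9.85 TPM in YFB_C and 65.1, 52.6 and 34.8 TPM in YFB_S (log2 fold change -2.40 ± 0.75, SE, edgeR adjusted p = 0.0222). Its FB_L libraries were at 22.3, 394 and 463 TPM, and FB_S was its next highest group, at 103, 78.1 and 60.9 TPM.

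In the stage 2 primordium, 1 member was called higher in P2_C than in P2_S, against 3.34% of all genes, and 9 lower, against 4.44%. All 3 P2_C libraries lay below all 3 P2_S libraries in CPM for 48 members (29.6%), against 18.0% of all genes. The rise was Lenti6_1_652575, at 3.19 ± 0.77 (log2, SE, edgeR adjusted p = 0.0101). Among the falls, Lenti6_1_656183 stood at 10.1, 14.6 and 5.43 TPM in P2_C and 26.4, 104 and 50.1 TPM in P2_S (log2 fold change -2.85 ± 0.76, SE, edgeR adjusted p = 0.0197). Lenti6_1_264464 stood at 1.71, 4.17 and 2.11 TPM in P2_C and 17.0, 13.2 and 6.29 TPM in P2_S (log2 fold change -2.41 ± 0.69, SE, edgeR adjusted p = 0.0293). These genes were thus higher in the early stipe, although Lenti6_1_264464 was higher in cap in the mature body. The 10 calls became 2, 5 and 1 without P2_C replicates 1, 2 and 3, and 5, 0 and 5 without P2_S replicates 1, 2 and 3. They became 4 under limma-voom (2.47% of members, against 7.56% of all genes) and 2 with the flowcell covariate (1.23%, against 6.56%). They became 20 under DESeq2 (12.3%, against 9.37%). Without the 4 libraries on the flowcell of FB_L replicate 1 they became 29 (17.9%, against 9.88%). In the 6 libraries alone they became 38, of which 32 were lower, and the share of members called (23.5%) then lay above that of all genes (10.5%).

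On the first step of fruiting, 4 members were called higher in P1 than in VM, against 6.91% of all genes, and 8 lower, against 8.08%. These 12 calls are 7.41% of the members, against 15.0% of all genes called in either direction. Lenti6_1_606931 (1095 bases) rose from 1.46, 2.50 and 4.39 TPM in VM to 14.0, 9.30 and 11.6 TPM in P1, by 2.24 ± 0.56 (log2, SE, edgeR adjusted p = 0.00727), and reached 132, 90.8 and 231 TPM in FB_L. Lenti6_1_571053 (2037 bases) stood at 5.85, 14.4 and 13.9 TPM in VM and 91.2, 21.6 and 17.7 TPM in P1, a change of 2.21 ± 0.76 (log2, SE, edgeR adjusted p = 0.0425). It was 0.92 without P1 replicate 1, with an adjusted p of 0.395. Lenti6_1_583236 fell from 28.3, 142 and 139 TPM in VM to 9.87, 5.52 and 7.14 TPM in P1, by 3.57 (log2) ± 1.15 (SE, edgeR adjusted p = 0.032). Lenti6_1_576743 (1282 bases) fell from 4.99, 17.7 and 24.6 TPM to 0.97, 1.30 and 1.43 TPM, by 3.50 (log2) ± 1.07 (SE, edgeR adjusted p = 0.0244). Its FB_L libraries were at 280, 111 and 3.07 TPM. The call was lost in 8 of 13 alternatives for Lenti6_1_583236 (adjusted p of up to 0.112) and in 7 of 13 for Lenti6_1_576743 (up to 0.193). The 12 calls in all became 7 without VM replicate 2, and 6, 7 and 7 without P1 replicates 1, 2 and 3. They became 4 with the flowcell covariate, 21 under DESeq2, and 29 in the 6 libraries alone, where 17.9% of the members and 12.4% of all genes were called.

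The contrasts with lamellae made the choice, so their counts describe the members and support nothing. Against FB_S and against YFB_C, 134 of 162 were called higher in each, with backgrounds of 9.45% and 6.31%. These comparisons share the FB_L libraries. Against FB_C, 14 were called higher, with a background of 0.545%. The median log2 fold change was 1.31, and the fold change was positive for 157 of 162. The count of 14 became 70 without FB_C replicate 2 (43.2% of members, against 4.39% of all genes in either direction). Without FB_C replicate 1 it became 2 (1.23%, against 2.0%). It was 43, 35 and 4 without FB_L replicates 1, 2 and 3 (26.5%, 21.6% and 2.47%, against 2.0%, 5.18% and 0.28%). It was 54 under DESeq2 (33.3%, against 4.54%). In the 6 libraries alone 0 members and 0 of all genes were called. Without the 4 libraries on the flowcell of FB_L replicate 1 the count was 87 (53.7%, against 3.76%). In CPM, the 3 FB_L libraries all lay above the 3 FB_C libraries for 25 members (15.4%), against 4.33% of all genes. In TPM this held for 35 members. The 27 members given earlier, with all FB_L libraries above the 24 others, were also counted in TPM.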

How the data were processed

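Per the labels' protocols, libraries were prepared from polyA RNA (Illumina TruSeq v2). The authors deposited, per the file headers, the count of all and of unique reads per gene, gene length and TPM for each library, and 1 matrix of log2 RPKM for 13805 genes, used only as an alternative. Its columns that matched no sample numbered 0. R 3.0.2, edgeR 3.4.2 and limma 3.18.13 are named in the submitters' processing notes. The aligner is not given in the sources used here, and the build only through the identifiers (Lenti6_1). The deposited TPM was recomputed from counts and lengths to within 3.5e-10. An RPKM column holding only 0 was not used. A reference table of another assembly, with 15665 genes, matched 0 identifiers.

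The members, the comparisons and the lists were chosen with earlier results of these data known. Counts were filtered with edgeR 4.0.16 (filterByExpr, minimum count 10; 13569 genes kept, 2012 removed), scaled by TMM and fitted in 1 model of 9 group means over 27 libraries with 18 residual degrees of freedom (R 4.3.3). All groups share 1 estimate of the spread, although FB_C and FB_L varied more than most. Tests were two-sided and adjusted by Benjamini-Hochberg over all tested genes. They measure the spread between these libraries, and intervals cover no other source. Each SE is the size of the log2 fold change over the root of F. CPM is TMM-scaled. The fit was also run on simulated counts with the same spread in every group and no flowcell effect. That run does not show how the fit behaves with the uneven spread and the flowcells here.

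Named genes follow a rule: the 2 largest margins, the 2 highest lamellae means, the 2 genes on each side of each threshold, the 2 widest and 2 narrowest over FB_L, the highest member for each next group of at least 5 members, and per comparison the 2 largest called rises and falls whose libraries do not overlap in CPM. Lists by gene function had been planned and could not be made.

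No 2 libraries agreed within sampling noise (chi-square per degree of freedom 41.7 to 328 within groups). Same-numbered libraries deviated together, over 11339 genes, in all 3 pairs only for YFB_C with YFB_S (correlations 0.365, 0.274 and 0.401). There the replicate block gave 9 calls in place of 8. Alternatives were DESeq2 1.42.0, limma-voom 3.58.1, no filter, a flowcell covariate, a replicate block, fits of the compared groups alone, and libraries left out.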

Additional observations from a re-analysis of the deposited data

Results flagged for a closer look

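For 63 members the change from young to mature fruiting body differed between cap and stipe, by a test of the difference itself (edgeR interaction, adjusted p under 0.05 and at least 2-fold), and in all 63 it was higher in cap. The same test called 16.2% of all genes in that direction and 11.1% in the other. With the flowcell covariate, 4.32% of members and 9.6% of all genes were called in either direction. Under limma-voom these shares were 21.6% and 25.1%. All member calls in those 2 fits were higher in cap.

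Of the named genes, 7 were called in this test. The cap change exceeded the stipe change by 6.80 (log2) for Lenti6_1_264464, 6.16 for Lenti6_1_583236, 5.84 for Lenti6_1_649447, 5.66 for Lenti6_1_653074, 5.58 for Lenti6_1_609041, 5.28 for Lenti6_1_653169 and 2.28 for Lenti6_1_559147. The edgeR adjusted p values were, in this order, 0.000355, 0.0072, 0.00114, 0.0375, 0.0272, 0.00109 and 0.0234. For Lenti6_1_583236, Lenti6_1_653169 and Lenti6_1_559147 the cap log2 fold changes were 4.56, 3.91 and 2.09, and the stipe values of -1.60, -1.38 and -0.19 did not pass the test (edgeR adjusted p = 0.343, 0.183 and 0.841). In Lenti6_1_264464 and Lenti6_1_649447 both tissues were called, in opposite directions, though the stipe calls were lost in 3 and 8 of 13 alternatives, with cap log2 fold changes of 3.72 and 3.35 and stipe log2 fold changes of -3.08 and -2.49. In Lenti6_1_653074 and Lenti6_1_609041 the stipe fold changes were 0.71 and 0.70 and did not pass the test (edgeR adjusted p = 0.789 and 0.751), and the cap value rested on FB_C replicate 2, at 253 and 1490 TPM. The part of that library in the difference was not tested for single genes beyond leaving it out.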

How the results depend on the processing

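Of 163 counts recomputed, 90 stayed within 1.5 times the reported one and 73 did not. The 18 named calls were kept in 158 of 234 alternatives, lost in 76 and reversed in 0. The rule gave 15 genes at a margin of 2, and 88 to 217 with 1 FB_L or FB_C library left out. It gave 124 on the authors' log2 RPKM, of which 118 were members. Calls in the order YFB_C with P2_C, YFB_C with YFB_S, P2_C with P2_S, P1 with VM, FB_C with YFB_C, FB_S with YFB_S, FB_C with FB_S, interaction, FB_L with FB_C, with FB_S and with YFB_C were 2, 8, 10, 12, 73, 13, 87, 63, 14, 134 and 134. Under DESeq2, YFB_C with P2_C became 7, P2_C with P2_S 20, P1 with VM 21, FB_S with YFB_S 23 and FB_L with FB_C 54. Under limma-voom, P2_C with P2_S became 4, FB_C with YFB_C 36, FB_S with YFB_S 3 and the interaction 35. With flowcell as a covariate all but YFB_C with YFB_S moved, to 0, 2, 4, 1, 1, 3, 7, 8, 83 and 87. With the replicate block, YFB_C with P2_C gave 0, FB_S with YFB_S 5 and FB_C with FB_S 53, and no other count moved by over 1.5 times. In the libraries of the compared groups alone, the first 7 became 5, 26, 38, 29, 7, 34 and 24, FB_L with FB_C 0 and FB_L with YFB_C 18. Without the 4 libraries on the flowcell of FB_L replicate 1, the first 3 became 8, 17 and 29, FB_C with YFB_C 37, FB_S with YFB_S 27 and FB_L with FB_C 87. With 1 library left out the ranges, in the same order, were 0 to 4, 4 to 10, 0 to 5, 6 to 10, 22 to 94, 0 to 10, 49 to 105, 38 to 84, 2 to 70, 122 to 137 and 107 to 125. The causes of these shifts were not tested. Depth was lowest in FB_L replicates 2 and 3, at 10.84 and 11.24 M reads, where counting error is widest. No filter on low counts moved no count by over 1.5 times.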
